A study of Mus musculus with 10 samples.

Results

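The genes described here are 39 genes of the lysosome and of the vacuolar H+-ATPase (V-ATPase), out of 55486 gene rows counted in 10 RNA sequencing libraries. All 39 symbols matched 1 row each. They fell into 6 genes of the V0 sector of the V-ATPase, which conducts protons, 7 of its V1 ATPase sector, 2 accessory subunits, 6 proteases, 6 glycosidases, 4 genes of lipid handling, 5 of the lysosomal membrane and 3 regulators or autophagy adaptors. The symbols were selected on CPM (counts of a gene over the total of its library, scaled to equal totals) compared by cell type, by subset within a gel and by culture, with earlier results of these libraries known. Values in those contrasts therefore serve as a description of the genes, and no count of members that passed a threshold is read as a result about them. Normal fibroblasts (NFs) had been sorted from mammary glands of 8-week-old mTmG reporter mice by the surface protein CD26 into a negative (CD26-) and a positive (CD26+) subset, usually from several pooled mice by the study's methods, and after a week of flat culture the CD26+ cells were turned green with a Cre-expressing adenovirus. Gel 1 held both NF subsets alone, gel 2 held WapCre;Cdh1F/F;PtenF/F tumor cells of line 13-MCB-17 alone and gel 3 those of line 10-SJK-221, of the same genotype. Gel 4 combined NFs with 13-MCB-17 and gel 5 NFs with 10-SJK-221. Gels were made of collagen and basement membrane extract, and in NF gels both subsets had been mixed in equal numbers. After 7 days each cell type was sorted from its gel. This gave 1 library of each NF subset grown alone and 2 libraries each of co-cultured CD26- NFs, co-cultured CD26+ NFs, tumor cells grown alone and co-cultured tumor cells.

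Lysosomes degrade proteins, glycans and lipids with hydrolases that work at low pH, and the V-ATPase supplies that acidity by coupling ATP hydrolysis in its V1 sector to proton transport through its V0 sector. Newly made hydrolases reach the lysosome through mannose 6-phosphate receptors. The transcription factors TFEB, TFE3 and MITF bind a palindromic motif in the promoters of many lysosomal genes, and mTORC1 at the lysosomal surface controls their entry into the nucleus. Fibroblasts also secrete cathepsins, which cut collagen and other matrix proteins outside the cell.

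Promoter sequences are shown for members that hold the motif TCACGTGA, the core of the element bound by TFEB and its relatives. RefSeq promoters (GRCm38.p6, 250 bases before to 50 bases after the start site) were given for 33 of 39 members, not for Atp6v0d2, Atp6v1b2, Atp6v1c1, Atp6v1h, Ctsb and Npc1. The motif was found in 7 of these 33 (21.2%), in 6 of 101 other lysosome genes (5.94%) and in 1.12% of 27025 genes with a promoter. It reads the same on both strands and contains the shorter CACGTG, which was found in 12 of 33 members (36.4%) and 8.09% of all genes. Capitals mark TCACGTGA, each window is read 5′ to 3′ on the strand of its gene, and matches are a description of letters, not of binding.
Ctsa, chr2:164833730-164833784 (+ strand): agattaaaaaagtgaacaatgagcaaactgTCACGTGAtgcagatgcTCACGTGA
Ctsd, chr7:142387889-142387956 (- strand): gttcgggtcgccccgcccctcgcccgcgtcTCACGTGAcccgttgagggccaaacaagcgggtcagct
Mcoln1, chr8:3500443-3500510 (+ strand): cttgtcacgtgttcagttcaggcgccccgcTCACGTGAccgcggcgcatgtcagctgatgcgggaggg
Atp6v0d1, chr8:105566061-105566098 (- strand): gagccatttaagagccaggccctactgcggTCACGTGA
Atp6v0e, chr17:26676368-26676405 (+ strand): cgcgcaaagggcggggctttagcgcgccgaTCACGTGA
Atp6v1a, chr16:44139354-44139421 (- strand): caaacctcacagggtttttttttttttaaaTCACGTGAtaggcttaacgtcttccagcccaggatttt
Gla, chrX:134601163-134601255 (- strand): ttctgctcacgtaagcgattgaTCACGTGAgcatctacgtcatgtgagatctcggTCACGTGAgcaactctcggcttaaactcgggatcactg

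Ctsa and Gla held the motif at 2 positions and the other 5 genes at 1. A gene was counted if any promoter listed for it held the motif, which need not be its main one. Atp6v0e starts at chr17:26663231 and Ctsa at chr2:164832873, so their windows lie inside the gene.

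Libraries held 14142334 to 18408940 counts, and 3 counts, the most that an observed 0 allows, corresponded to 0.163 to 0.212 CPM. Epcam, an epithelial surface protein, was at 335 to 432 CPM in tumor cells and Col1a1, the major fibroblast collagen, at 7882 to 18556 CPM in NFs. Dpp4, which encodes CD26, had 4 to 12 counts in the CD26+ NF libraries and 0 or 1 count in every other library, so transcript levels allow only a coarse check of that sort. Sums over 10 epithelial genes were 0.435 and 1.4 CPM in NFs grown alone but 129.6 to 307 CPM in NFs sorted from co-cultures, against 4011 to 5629 CPM in tumor cells. Scaled by the median epithelial gene (1.97 to 5.03% of the level in tumor cells of the same gel), tumor RNA would supply a median of 2.18% and at most 7.3% (Lipa) of a member's level in co-cultured NFs. Single epithelial genes ranged from 0.827 to 17.7% of their tumor level, and scaled by the highest of them in each library, a scaling added after values were seen, the median would be 9.26% and the highest 25.7% (Lipa). In co-cultured tumor cells the median of 8 fibroblast genes (Vim and Pdgfra left out) was at 0.0545 and 0.079% of its NF level. Summed over 10 fibroblast genes, tumor cells had 1267 and 1336 CPM when grown alone and 2242 and 2701 CPM in co-culture, where 6 of 7 tested were called higher. Among 10 macrophage genes, cells known for abundant lysosomes, Ptprc was at 0 to 0.127 CPM, Tyrobp and C1qb were at 0 in all 10 libraries, Csf1r was at 1.86 and 2.81 CPM in NFs of gel 1 and 7.42 to 13.5 CPM in those of gels 4 and 5, and list sums were 10 and 10.1 CPM in NFs grown alone against 17.7 to 22.4 CPM in NFs of gels 4 and 5. Of 4 macrophage genes tested in NF co-culture, Csf1r (2.12 ± 0.32), Cd14 (1.82 ± 0.27) and Itgam (3.97 ± 0.88) were called higher and Lyz2 (-3.47 ± 0.51) lower. In bulk libraries, a change in the number of cells that express a gene and a change of RNA per cell cannot be told apart.

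Together the 39 genes took up 0.973% (CD26-) and 1.2% (CD26+) of the counts of NFs grown alone, 1.25 and 1.11% of those of co-cultured CD26- NFs, and 1.53 and 1.56% of those of co-cultured CD26+ NFs. Tumor cells gave 1.32 and 0.986% when grown alone and 1.1 and 0.887% in co-culture. Thus co-cultured CD26+ NFs had the highest shares and co-cultured tumor cells of line 10-SJK-221 the lowest. On a scale of CPM per kb of exon, Psap, whose product prosaposin is cut into activators of sphingolipid hydrolysis, ranked first of 39 in NFs grown alone (469 CPM per kb) and in tumor cells grown alone (871 CPM per kb). Ctsk, the collagen-cutting cathepsin K, ranked 2 in NFs and 35 in tumor cells, and Hexa ranked 6 and 37. Counting was not stated to use strand, and other genes overlap more than 10% of the exon length of Ctsd (34.4%), Ctsl (26.8%), Ctsa (17.4%), Sqstm1 (17.3%), Hexa, Ctsb (12.8% each) and Atp6v0b (11.8%), whose counts are uncertain to that extent.

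**Figure D1:**
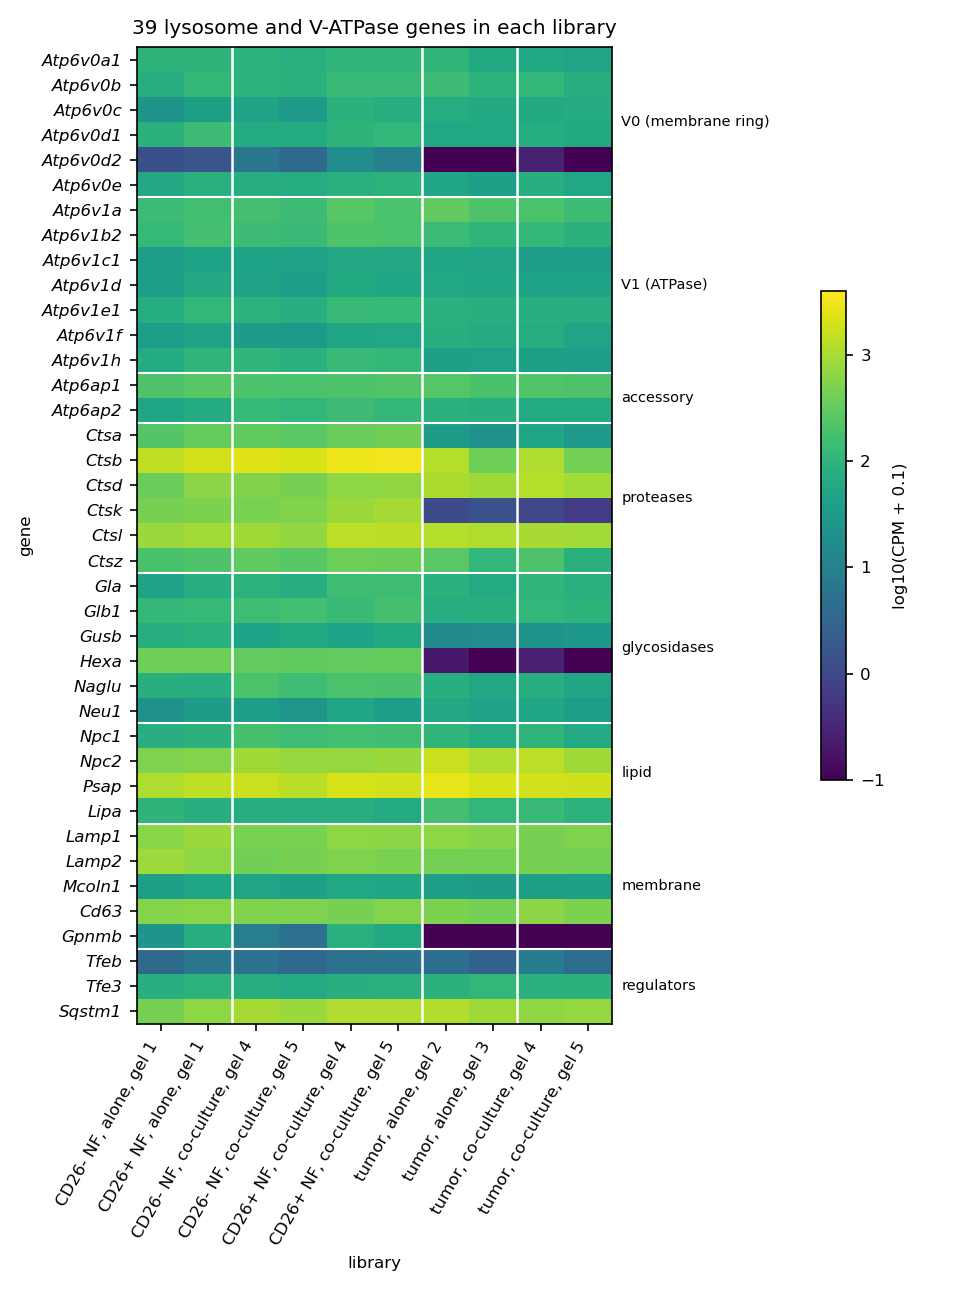
Level of each of the 39 genes (rows, grouped by role) in each of the 10 libraries (columns), as log10(CPM + 0.1). White lines separate roles and cell type or culture; Atp6v0d2, Ctsk, Hexa and Gpnmb are dark in all 4 tumor libraries.

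Cell types stood furthest apart at 4 genes that were at or near 0 in tumor cells. Hexa, on chr9:59539540-59565109 (GRCm38), encodes the alpha subunit of beta-hexosaminidase A, which splits GM2 ganglioside. Hexa was at 382 (CD26-) and 382 CPM (CD26+) in NFs of gel 1. Gel 4 gave 309 (CD26-) and 311 CPM (CD26+), and gel 5 gave 295 (CD26-) and 330.0 CPM (CD26+). The 4 tumor libraries held 2, 0, 3 and 0 Hexa counts, or 0.109 and 0 CPM in gels 2 and 3 (tumor cells alone) and 0.17 and 0 CPM in gels 4 and 5. No NF library came within a factor of 100 of any tumor library. The pooled NF to tumor ratio was 6513 (95% counting interval 1803 to 53785) in cells grown alone and 3643 (interval 1246 to 17666) in the shared gels, where the interval covers counting error only. Of the genes that flank Hexa, Tmem202, which overlaps it, and Celf6 had 0 counts in all 4 tumor libraries, against 5 to 32 and 0 to 4 counts in NF libraries. Farther along, Parp6 was at 54.7 to 78.8 CPM and Pkm, the glycolytic pyruvate kinase, at 3262 to 4133 CPM in the 4 tumor libraries. Gm2a, the gene of the GM2 activator protein, was at 50.1 to 138 CPM in tumor cells. These 5 genes were named for their position or their tie to Hexa after values were seen.

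Gpnmb, a membrane glycoprotein that marks lysosome-rich cells, had 0 counts in all 4 tumor libraries. Its NF levels were 23.8 (CD26-) and 74.3 CPM (CD26+) in gel 1, 9.09 (CD26-) and 81.6 CPM (CD26+) in gel 4 and 5.41 (CD26-) and 63.4 CPM (CD26+) in gel 5. Set against 3 counts per tumor library, mean NF levels were at least 277-fold higher in cells grown alone and at least 234-fold higher in the shared gels. Ctsk was at 456 (CD26-) and 498 CPM (CD26+) in NFs of gel 1. Ctsk stood at 469 and 526 CPM in CD26- and 793 and 949 CPM in CD26+ cells of co-culture gels 4 and 5. Its tumor levels were 0.978 and 1.27 CPM in gels 2 and 3 (tumor cells alone) and 0.848 and 0.57 CPM in gels 4 and 5. The log2 difference of tumor from NFs was -8.86 ± 0.29 (SE) in cells grown alone and -10.04 ± 0.30 in the shared gels. Atp6v0d2, the d2 stalk subunit known from osteoclasts and macrophages, was low throughout, with NF values given with the culture effects. It had 0 counts in tumor cells grown alone, where NFs were at least 7.87-fold higher, and 3 and 0 counts in co-cultured tumor cells, where the pooled NF to tumor ratio was 109 (95% counting interval 37.3 to 532).

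**Figure D2:**
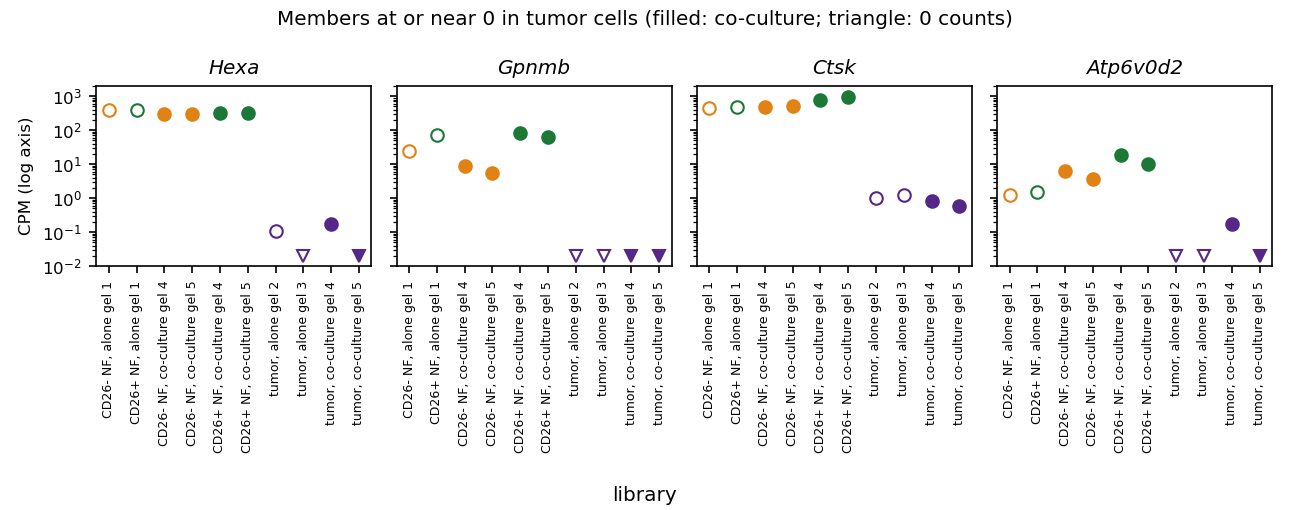
CPM on a log axis of Hexa, Gpnmb, Ctsk and Atp6v0d2 in each of the 10 libraries. Open symbols are cells grown alone, filled symbols are co-cultures, and triangles mark libraries with 0 counts; every NF library lies above every tumor library for each gene.

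The remaining members were expressed in both cell types. Ctsa, the carboxypeptidase that protects beta-galactosidase and sialidase, was at 231 (CD26-) and 319 CPM (CD26+) in NFs of gel 1. With tumor cells, CD26- NFs had 296 and 269.9 CPM and CD26+ NFs had 358 and 396 CPM (gels 4 and 5). In tumor cells it was at 35.5 and 21.8 CPM in gels 2 and 3 (tumor cells alone) and 53.5 and 31.1 CPM in gels 4 and 5. Levels in NFs and tumor cells did not overlap, and Ctsa was lower in tumor cells by a log2 difference of -3.37 ± 0.33 (grown alone) and -3.14 ± 0.31 (shared gels). Npc2, which binds cholesterol in the lysosomal lumen, went the other way in cells grown alone. Tumor levels were 1715 and 1142 CPM in gels 2 and 3 (tumor cells alone) and 1375 and 874 CPM in gels 4 and 5, and NF levels 509 (CD26-) and 566 CPM (CD26+) in gel 1, 884 (CD26-) and 731 CPM (CD26+) in gel 4 and 766 (CD26-) and 823 CPM (CD26+) in gel 5. Tumor cells were higher by 1.29 ± 0.29 (log2) when grown alone, whereas the difference of 0.29 ± 0.24 in the shared gels missed the threshold. Over gels 4 and 5 together the levels overlapped, but within each gel tumor cells had more Npc2 than both NF libraries, and with the gel as a block the difference was 0.26 ± 0.20, also short of the threshold. Ctsd, the main aspartic protease of the lysosome, was at 362 (CD26-) and 627 CPM (CD26+) in NFs of gel 1. In gels 4 and 5 it was at 530.3 and 452 CPM in CD26- and 669 and 696 CPM in CD26+ NFs. Tumor levels were 1065 and 895 CPM in gels 2 and 3 (tumor cells alone) and 1199.7 and 903 CPM in gels 4 and 5. It was higher in tumor cells in both settings, by 0.91 ± 0.20 and 0.66 ± 0.17 on the log2 scale, with no overlap between the cell types.

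By the edgeR quasi-likelihood test, adjusted over all genes (threshold 0.05), 7 of 39 members were higher and 12 lower in tumor cells than in NFs grown alone, beside 27.1% and 28.4% of 17048 genes. Scaled by library totals alone, these counts were 11 higher and 11 lower, beside 30.1% and 25.6%. In the shared gels 1 member was higher and 21 were lower, beside 24.2% and 27.7%. With the gel as a block, which pairs cells of 1 gel, 2 were higher and 25 lower, beside 27.4% and 32.1%. Calls gained under the block were Lipa, higher (0.38 ± 0.14), and Atp6v0b (-0.41 ± 0.15), Atp6v0e (-0.51 ± 0.17), Atp6v1a (-0.38 ± 0.13) and Gla (-0.46 ± 0.13), lower. The median log2 difference over the members was -0.25 and -0.49, and over all genes tested -0.02 and -0.06. Since these contrasts were among those used to choose the genes, nothing is read from the counts. By role, 2 of 4 lipid genes were higher in tumor cells grown alone (Npc2 and Psap, 0.78 ± 0.20) and 0 of 4 in the shared gels, where Npc1, the cholesterol exporter of the lysosomal membrane, was lower (-1.16 ± 0.23). The glycosidase Naglu, which degrades heparan sulfate, differed by -0.30 ± 0.27 in cells grown alone, short of the threshold, and was lower in tumor cells of the shared gels (-1.69 ± 0.25). Of the V1 subunits, Atp6v1h, a regulatory subunit, was lower in tumor cells in both settings (-1.12 ± 0.15 and -1.66 ± 0.14), and Atp6v1f was higher in tumor cells grown alone (0.71 ± 0.21). The ring subunit Atp6v0c was at 70 and 61.9 CPM in gels 2 and 3 (tumor cells alone) and 63.3 and 68 CPM in gels 4 and 5 for tumor cells, and its NF values are given with the subsets. It was higher in tumor cells grown alone (0.94 ± 0.19) and differed by 0.07 ± 0.16 in the shared gels, short of the threshold. Without the CD26- NF library grown alone, 1 of the higher calls of cells grown alone remained (Npc2), and those of Atp6v0c (0.63) and Ctsd (0.57) were lost. In the shared gels the Ctsd call was lost without the tumor library of gel 4 (0.43).

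The 2 tumor lines are shown at the cysteine proteases Ctsb and Ctsz, picked after values were seen. Ctsb was at 1230.0 and 1106 CPM in line 13-MCB-17 (alone and co-cultured) and at 389.7 and 434 CPM in line 10-SJK-221. Ctsz was at 259.9 and 208 CPM in the first line and 111 and 83.1 CPM in the second. For both genes each library of the first line lay above each library of the second, as for 16 of 36 members tested in tumor cells, and 1 member lay below, beside 15.1% and 26.7% of all genes tested there. With 2 libraries a line, this contrast was not tested. NF levels of Ctsb were 1465 to 3274 CPM, above every tumor library.

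To ask how NFs responded to tumor cells, co-cultured NFs were compared with NFs grown alone, with subset as a term in the fit. Only gel 1 held NFs alone, so the comparison sets 2 gels against 1 and a peculiarity of gel 1 cannot be told apart from the culture. Of the 39 members, all tested, 14 rose and 3 fell, beside 25.9% and 22.9% of 15013 genes, and nothing is read from these counts. The median log2 fold change was 0.31 over the members and 0.02 over all genes. Atp6v0d2 had the highest fold change. It was at 1.24 (CD26-) and 1.54 CPM (CD26+) in NFs of gel 1. Gel 4 gave 6.36 (CD26-) and 18.1 CPM (CD26+), and gel 5 gave 3.74 (CD26-) and 9.97 CPM (CD26+). It rose by 2.67 ± 0.42 (SE) on the log2 scale. Each co-cultured library lay above both libraries of NFs grown alone. Naglu was at 78.1 (CD26-) and 74.6 CPM (CD26+) in NFs of gel 1. Naglu stood at 196 and 146 CPM in CD26- and 198 and 193 CPM in CD26+ cells of co-culture gels 4 and 5, and its log2 fold change was 1.30 ± 0.15. Atp6ap2, the accessory subunit also known as the prorenin receptor, was at 52.6 (CD26-) and 67 CPM (CD26+) in NFs of gel 1. With tumor cells, CD26- NFs had 121 and 111 CPM and CD26+ NFs had 139.6 and 114 CPM (gels 4 and 5), and its log2 fold change was 1.07 ± 0.14. For Naglu and Atp6ap2, too, every co-cultured library exceeded both libraries of gel 1. Summed fibroblast genes were at 78052 and 72788 CPM in NFs of gel 1 and 25188 to 43671 CPM in NFs of gels 4 and 5, with 5 of 10 called lower and 2 higher. Of 4 endothelial genes tested, Pecam1 (3.35 ± 0.39) and Cdh5 (3.54 ± 0.67) were called higher and Tek (-2.48 ± 0.58) lower, and sums over 5 such genes are given with the subsets. Epithelial genes rose in these NF libraries and macrophage genes moved, as given above, and the part of these lists in the culture differences was not tested. For Atp6v0d2, Naglu, Atp6ap2 and Gla the tumor cells of gels 4 and 5 had lower CPM than each co-cultured NF library except Gla in CD26- NFs.

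Gla, the alpha-galactosidase that removes terminal galactose from glycolipids, was at 44.5 (CD26-) and 72.4 CPM (CD26+) in NFs of gel 1. In gels 4 and 5 it was at 94.2 and 73.2 CPM in CD26- and 151 and 147 CPM in CD26+ NFs. It rose by 1.02 ± 0.14 on the log2 scale, and every co-cultured library exceeded every library of gel 1, though by little for CD26- NFs of gel 5 over CD26+ NFs grown alone. Tumor levels of Gla were 88.2 and 63.8 CPM in gels 2 and 3 (tumor cells alone) and 105 and 83.2 CPM in gels 4 and 5. Sqstm1, the autophagy adaptor p62, was at 451 (CD26-) and 654 CPM (CD26+) in NFs of gel 1. Gel 4 gave 957 (CD26-) and 1113 CPM (CD26+), and gel 5 gave 823 (CD26-) and 1110.1 CPM (CD26+). Sqstm1 rose by 0.92 ± 0.15 in log2 terms, with every co-cultured library above both libraries of gel 1. Of 4 lipid genes, Npc1 rose by 1.00 ± 0.14, Npc2 by 0.62 ± 0.15 and Psap by 0.51 ± 0.16, beside 25.9% of all genes tested. Lipa, the acid lipase, differed by -0.22 ± 0.12, short of the threshold. Among 6 proteases, Ctsz (0.74 ± 0.14), Ctsb (0.72 ± 0.16) and Ctsk (0.50 ± 0.19) rose. Among V-ATPase subunits Atp6v0c (0.84 ± 0.17), Atp6v1h (0.43 ± 0.13) and Atp6v1c1 (0.36 ± 0.12) also rose.

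Falls were seen at Lamp2, Gusb and Atp6v0d1. Lamp2, a heavily glycosylated protein of the lysosomal membrane that takes part in chaperone-mediated autophagy, was at 827 (CD26-) and 669 CPM (CD26+) in NFs of gel 1. Lamp2 stood at 423 and 454 CPM in CD26- and 516 and 477 CPM in CD26+ cells of co-culture gels 4 and 5. Tumor levels were 428 and 441 CPM in gels 2 and 3 (tumor cells alone) and 454 and 436 CPM in gels 4 and 5. It fell in NFs with a log2 fold change of -0.63 ± 0.15. Gusb, the beta-glucuronidase, was at 74.6 (CD26-) and 88.1 CPM (CD26+) in NFs of gel 1. With tumor cells, CD26- NFs had 47 and 61.6 CPM and CD26+ NFs had 46.6 and 63.4 CPM (gels 4 and 5), with a log2 fold change of -0.52 ± 0.18. Atp6v0d1, the widely expressed d1 stalk subunit, was at 90.9 (CD26-) and 145 CPM (CD26+) in NFs of gel 1. In gels 4 and 5 it was at 67.5 and 68.3 CPM in CD26- and 98.1 and 112 CPM in CD26+ NFs (-0.39 ± 0.12). Tumor levels were 57.2 and 56 CPM in gels 2 and 3 (tumor cells alone) and 69 and 61.9 CPM in gels 4 and 5. At Lamp2 and Gusb each co-cultured library lay below both libraries of gel 1, whereas at Atp6v0d1 the co-cultured CD26+ libraries lay above CD26- NFs grown alone. Of 5 membrane genes, Lamp2 alone was called. Lamp1, the relative of Lamp2, was at 608 (CD26-) and 811 CPM (CD26+) in NFs of gel 1. Gel 4 gave 479 (CD26-) and 666 CPM (CD26+), and gel 5 gave 474 (CD26-) and 643 CPM (CD26+), and its log2 fold change of -0.28 ± 0.13 missed the threshold. In tumor cells Lamp1 was at 649 and 591 CPM in gels 2 and 3 (tumor cells alone) and 461 and 506 CPM in gels 4 and 5. Tfeb, which encodes a transcription factor of lysosomal genes, was low, with 3.79 (CD26-) and 6.81 CPM (CD26+) in NFs of gel 1. Tfeb stood at 5.09 and 3.45 CPM in CD26- and 5.4 and 5.44 CPM in CD26+ cells of co-culture gels 4 and 5 (-0.05 ± 0.27, short of the threshold). In this comparison the calls of Atp6v0d1 (-0.31 and -0.49), Psap (0.41 and 0.59), Atp6v1c1 (0.37 and 0.35) and Atp6v1h (0.34 and 0.51) were lost without gel 4 and also without gel 5, that of Gusb without gel 4 (-0.29), and those of Ctsk (0.36) and Npc2 (0.59) without gel 5.

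In tumor cells, co-culture with NFs was compared with the same 2 lines grown alone, with line as a term. Of the 36 members tested (Atp6v0d2, Hexa and Gpnmb did not pass the filter on low counts), 4 rose and 7 fell, beside 10.8% and 11.5% of 13197 genes. The fit has 1 residual degree of freedom, and the calls changed with the tool and the fit. DESeq2 called 0 members higher and 3 lower, beside 5.4% and 6.76% of genes, and a fit of all 10 libraries as 6 groups called 0, beside 1.83% and 1.67%. Gusb was at 16 and 16.3 CPM in gels 2 and 3 (tumor cells alone) and 24.3 and 27.9 CPM in gels 4 and 5, a log2 fold change of 0.66 ± 0.15. Ctsa (0.53 ± 0.12), Atp6v0e (0.48 ± 0.10) and Glb1, the beta-galactosidase (0.40 ± 0.11), also rose. Atp6v0e, a small subunit of the V0 sector, was at 53.5 and 39.1 CPM in gels 2 and 3 (tumor cells alone) and 76.6 and 54.6 CPM in gels 4 and 5, with NF levels of 60.1 (CD26-) and 82.8 CPM (CD26+) in gel 1, 73.8 (CD26-) and 84 CPM (CD26+) in gel 4 and 69.5 (CD26-) and 95.7 CPM (CD26+) in gel 5. Glb1 was at 74.6 and 77.6 CPM in gels 2 and 3 (tumor cells alone) and 112 and 93.4 CPM in gels 4 and 5. At all 4 genes each line was higher in co-culture than alone, which describes genes that this fit called and is no separate test. Fibroblast genes rose in the same libraries, as given above. Of 10 epithelial genes, 0 were called higher and 5 lower (Cldn3, Cldn4, Cldn7, Dsp and Cdh1), with a median log2 fold change of -0.45 and sums of 4253 and 5629 CPM alone and 4011 and 4869.6 CPM in co-culture. The part of both lists in these differences was not tested. Atp6v0a1, an isoform of the large a subunit, was at 100.2 and 62.8 CPM in gels 2 and 3 (tumor cells alone) and 54.6 and 48.1 CPM in gels 4 and 5, and fell with a log2 fold change of -0.66 ± 0.13. Its NF levels were 99.7 (CD26-) and 98.7 CPM (CD26+) in gel 1, 93 (CD26-) and 108 CPM (CD26+) in gel 4 and 84.7 (CD26-) and 101 CPM (CD26+) in gel 5. Atp6v1a, the catalytic subunit, was at 299 and 209 CPM in gels 2 and 3 (tumor cells alone) and 196 and 142 CPM in gels 4 and 5 (-0.61 ± 0.10), with NF levels of 142 (CD26-) and 164 CPM (CD26+) in gel 1, 174 (CD26-) and 255 CPM (CD26+) in gel 4 and 143 (CD26-) and 196 CPM (CD26+) in gel 5. Sqstm1 was at 1183 and 862 CPM in gels 2 and 3 (tumor cells alone) and 678 and 733 CPM in gels 4 and 5 (-0.54 ± 0.16). Each line was lower in co-culture at these 3 genes, likewise called by this fit. Atp6v1c1, Lipa, Ctsz and Atp6ap2 fell with log2 fold changes from -0.43 to -0.38. Within each line Ctsz was lower in co-culture, with log2 differences of -0.36 (13-MCB-17) and -0.42 (10-SJK-221). The fit of 6 groups has no line term, so leaving out 1 tumor library makes the lines unequal between cultures. There Ctsz turned to 0.42 without 13-MCB-17 grown alone and to 0.15 without co-cultured 10-SJK-221.

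Whether NFs and tumor cells responded differently was tested as the culture effect in tumor cells minus that in NFs, in the fit of all 10 libraries. This contrast combines those on which the genes were chosen. Of 39 members, 1 was called higher and 6 lower, beside 8.15% and 12% of 17048 genes; with library totals alone the split was 3 and 4, beside 8.87% and 10.9%. Sqstm1 differed by -1.48 ± 0.27 (adjusted p = 0.00677), with each co-cultured NF library above its subset grown alone and each co-cultured tumor library below its line grown alone. Atp6ap2 differed by -1.46 ± 0.19 (adjusted p = 0.00181) and Naglu by -1.39 ± 0.36 (adjusted p = 0.0287). Tumor levels of Atp6ap2 were 86.6 and 80.7 CPM in gels 2 and 3 (tumor cells alone) and 65.4 and 65.2 CPM in gels 4 and 5. Those of Naglu were 81 and 54 CPM in gels 2 and 3 (tumor cells alone) and 77.3 and 52.3 CPM in gels 4 and 5, with little change in either line. Gusb went the opposite way, by 1.19 ± 0.29 (adjusted p = 0.0248), having fallen in NFs and risen in tumor cells. Psap, Atp6v0c and Atp6v1c1 made up the other lower calls. The number called ranged from 2 to 13 when 1 library was left out. It was 2 without 13-MCB-17 grown alone, 2 without co-cultured CD26- NFs of gel 4, 2 without co-cultured 10-SJK-221, 4 without co-cultured CD26+ NFs of gel 4, 4 without those of gel 5, and 13 without 10-SJK-221 grown alone.

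**Figure D3:**
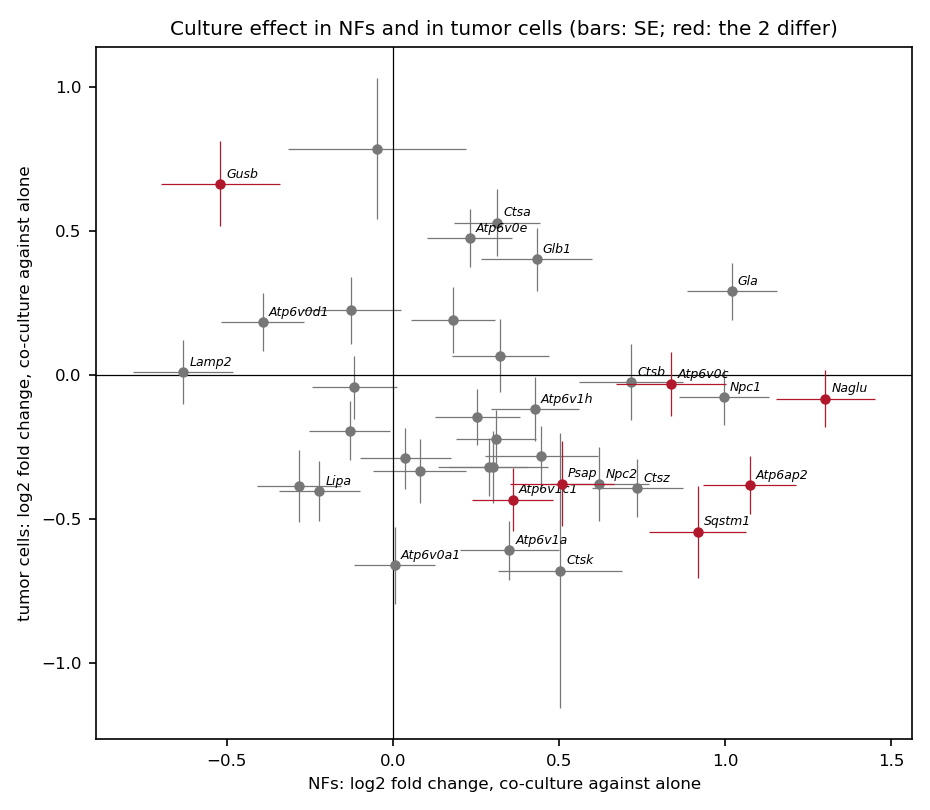
Log2 fold change of co-culture against cells grown alone in NFs (x axis) and tumor cells (y axis) for the 36 members tested in both; bars are SE. Red marks the 7 members whose culture effect differed between the cell types by the edgeR test over all 10 libraries, of which Sqstm1 and Atp6ap2 lie to the lower right and Gusb to the upper left.

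Both subsets shared gels 1, 4 and 5, over which CD26+ NFs were set against CD26- NFs with culture as a term. The adenovirus was given to CD26+ cells only, so subset and exposure to it cannot be told apart. In gels 4 and 5 the median epithelial gene stood at 3.1 and 5.03% of its tumor level in CD26+ NFs and at 1.97 and 2.2% in CD26- NFs, and endothelial genes also differed. Summed over 5 genes, these were at 4.6 (CD26-) and 9.76 CPM (CD26+) in gel 1, 10.1 and 24.4 CPM in gel 4, and 8.06 and 14.8 CPM in gel 5, and Kdr was called higher in CD26+ NFs (2.11 ± 0.41). Summed fibroblast genes were at 78052 and 72788 CPM in gel 1, 39976 and 25188 CPM in gel 4, and 43671 and 31984 CPM in gel 5, lower in CD26+ NFs each time, with 2 of 10 called lower, Col1a2 (-0.79 ± 0.20) and Pdgfrb (-0.85 ± 0.22). The part of these lists in the subset difference was not tested. Of 39 members 5 were higher in CD26+ NFs and 0 lower, beside 3.93% and 3.6% of genes tested; 1 was lower at an unadjusted p under 0.05. With the gel as a block, 6 were higher and 0 lower, beside 4.4% and 4.47%. DESeq2 called 10 higher and 1 lower, beside 5.38% and 5.79%. Library totals alone gave 12 higher and 0 lower, beside 7.46% and 1.75%, and without a filter beyond 1 count 3 were higher and 0 lower, beside 1.89% and 2.04%. Gpnmb differed by 2.58 ± 0.33 on the log2 scale (adjusted p = 0.00415), and each of the 3 CD26+ libraries, given above, exceeded each CD26- library. Atp6v0c, the proteolipid that lines the proton path, was at 24.4 (CD26-) and 40.6 CPM (CD26+) in NFs of gel 1. With tumor cells, CD26- NFs had 44.2 and 31 CPM and CD26+ NFs had 85.7 and 72.7 CPM (gels 4 and 5). It differed by 0.81 ± 0.15. Gla differed by 0.63 ± 0.12, Atp6v0d1 by 0.49 ± 0.12 and Atp6v0b, the second proteolipid, by 0.43 ± 0.11; within each gel the CD26+ library was the higher one for these 4 genes. Atp6v0d2 was called under the block alone (1.06 ± 0.27). Without gel 5, 0 members were called, with Gpnmb at 2.25, and the number called over all genes was 17, against 590 higher and 540 lower in all 3 gels. The call of Atp6v0b was lost whichever gel was left out, and that of Atp6v0d1 also without gel 1.

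Within gels, after TMM scaling, 24 of 39 members were higher in CD26+ NFs in 3 of 3 gels and 4 were lower in 3 of 3, beside 23.3% and 23.6% of all genes tested. The subset within each gel was among the contrasts on which the genes were chosen, so the counts are a description. The V-ATPase genes made up 12 of the 24, with medians of 0.30, 0.33 and 0.33 log2 units in gels 1, 4 and 5, beside medians of all genes within 0.01 of 0. Atp6v0a1, Atp6ap1 and Atp6ap2 were the 3 V-ATPase genes with mixed directions. The V1 genes Atp6v1b2, Atp6v1d and Atp6v1e1 differed by 0.38 ± 0.11, 0.40 ± 0.13 and 0.41 ± 0.12 over the 3 gels, all short of the threshold. Of 5 further V-ATPase genes that passed the filter and were not members, 3 were higher in 3 of 3 gels and 0 lower, and of 34 further hydrolases 7 were higher and 9 lower. Higher and lower in every gel were 13 and 1 of 23 autophagy genes, 7 and 1 of 21 further membrane genes, 7 and 2 of 17 genes of the TFE and mTORC1 pathway, and 5 and 3 of 14 delivery genes, or 42 and 16 of all 114 other lysosome genes tested. Members that were lower in CD26+ NFs of every gel were Lipa (-0.52, -0.27 and -0.41), Glb1, Hexa and the tetraspanin gene Cd63. Scaled by library totals alone (CPM), Lipa was still lower in every gel, Glb1 and Cd63 were lower in gel 4 alone, and Hexa was lower in no gel. Scaling by library totals alone raised the median subset difference of all genes to 0.16, and that of the V-ATPase genes from 0.38 to 0.53. Under TMM, RLE and library totals 15 of 15 V-ATPase genes were positive over the 3 gels together, beside 7573 of 15013 genes under TMM. This too describes genes chosen on the subset contrast.

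**Figure D4:**
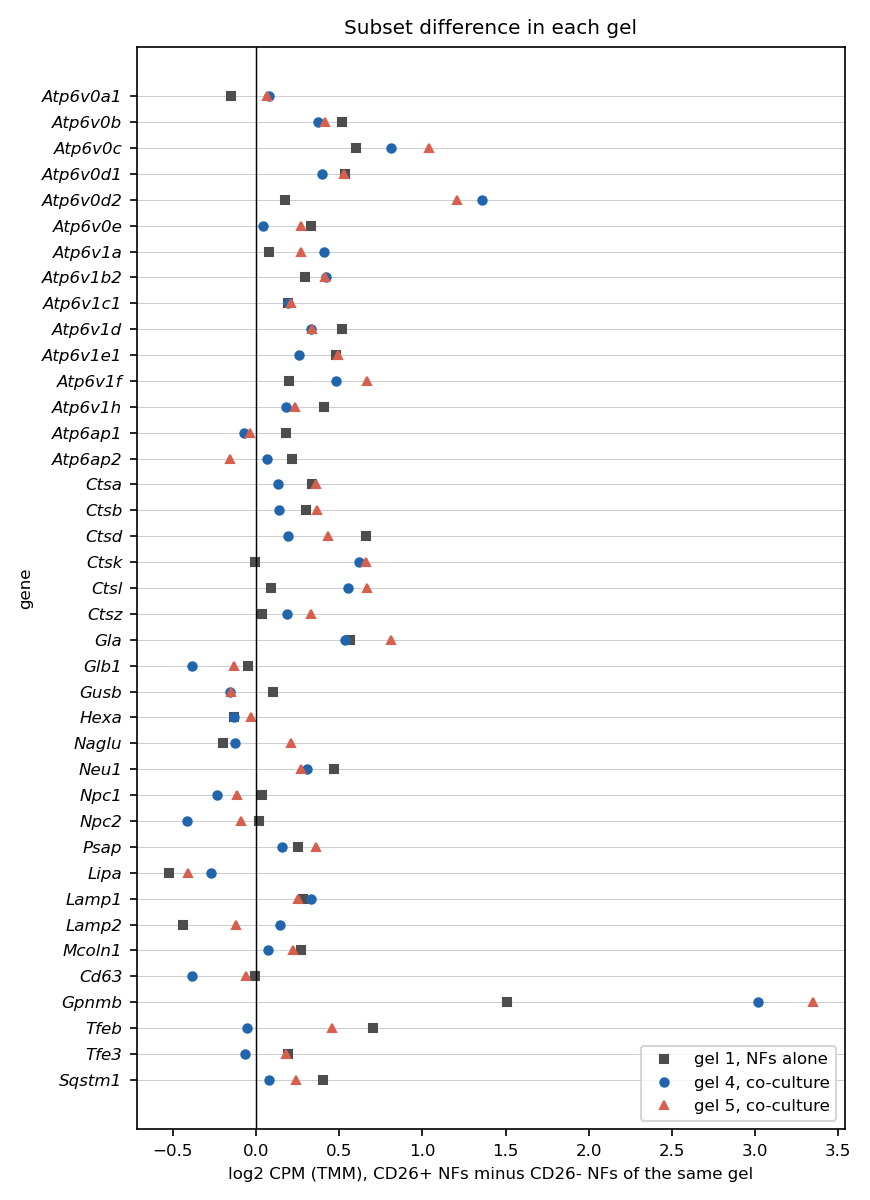
Log2 difference of CD26+ from CD26- NFs of the same gel (TMM-scaled CPM, 1 prior count) for each member, with squares for gel 1 (NFs alone), circles for gel 4 and triangles for gel 5 (co-cultures). Points of 12 of the 15 V-ATPase genes lie right of 0 in all 3 gels, and Gpnmb lies farthest right.

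By the edgeR interaction test, no member passed the threshold for a culture effect that differed between the subsets (0 of 39, beside 0.228% higher and 0.148% lower of 16231 genes); 1 member, Gpnmb, had an unadjusted p under 0.05. Gpnmb went from 23.8 to 9.09 and 5.41 CPM in CD26- NFs and was at 74.3, 81.6 and 63.4 CPM in CD26+ NFs, an interaction of 1.66 ± 0.37 (adjusted p = 0.0934). It was called by DESeq2 (1.64, adjusted p = 0.0458) and with the gel as a block (1.68 ± 0.31, adjusted p = 2.15e-05), a fit with 1 residual degree of freedom. Ctsk showed a pattern of the same direction, at 456 and 498 CPM in gel 1 and 793 and 949 CPM in co-cultured CD26+ against 469 and 526 CPM in co-cultured CD26- NFs, but its interaction (0.65 ± 0.32) missed the threshold.

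Some V-ATPase subunits have several isoform genes, which were compared per kb of exon. The a subunit, which anchors the V0 ring and directs the pump to a membrane, was encoded mainly by Atp6v0a1, Atp6v0a2 and Tcirg1, the last known as the a3 isoform of osteoclasts. Tcirg1 made up 20% of the summed CPM per kb of the a genes in CD26- and 29.1% in CD26+ NFs grown alone, 39 and 29.7% in co-cultured CD26- NFs, 52.8 and 51.4% in co-cultured CD26+ NFs, and 59.5 to 74.5% in tumor cells. In gels 1, 4 and 5 its share was higher in CD26+ than in CD26- NFs, and each co-cultured NF library had a higher share than its subset grown alone. Tcirg1 rose by 1.07 ± 0.20 in co-cultured NFs and was higher in CD26+ NFs by 0.95 ± 0.18. Atp6v0a1, a member, made up 45.4 and 37.5% in NFs grown alone and 13.8 and 16.6% in co-cultured tumor cells, its lowest shares. Of the d subunit, Atp6v0d2 made up 0.894 and 0.7% in NFs grown alone and 3.49 to 10.9% in co-cultured NFs, and Atp6v0d1 the rest. For the B, C, E and G subunits, Atp6v1b2, Atp6v1c1, Atp6v1e1 and Atp6v1g1 each made up over 98% in every library. Markers of osteoclasts, in which Tcirg1, Atp6v0d2 and Ctsk are known to be high, were near 0 for Calcr, Oscar and Dcstamp (at most 0.399 CPM), whereas Itgb3, an integrin subunit also used by other cells, and Nfatc1, a transcription factor of osteoclast formation, were called higher in co-cultured NFs. Itgb3 went from 13.2 and 13.5 CPM in NFs grown alone to 332 to 521 CPM in co-cultured NFs. Nfatc1 rose by 0.55 ± 0.15 and was lower in CD26+ NFs (-1.02 ± 0.14). Summed over 6 osteoclast genes, levels were 69.5 and 97.1 CPM in NFs of gel 1 against 403 to 649.6 CPM in NFs of gels 4 and 5. The part of these markers in the result was not tested.

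**Figure D5:**
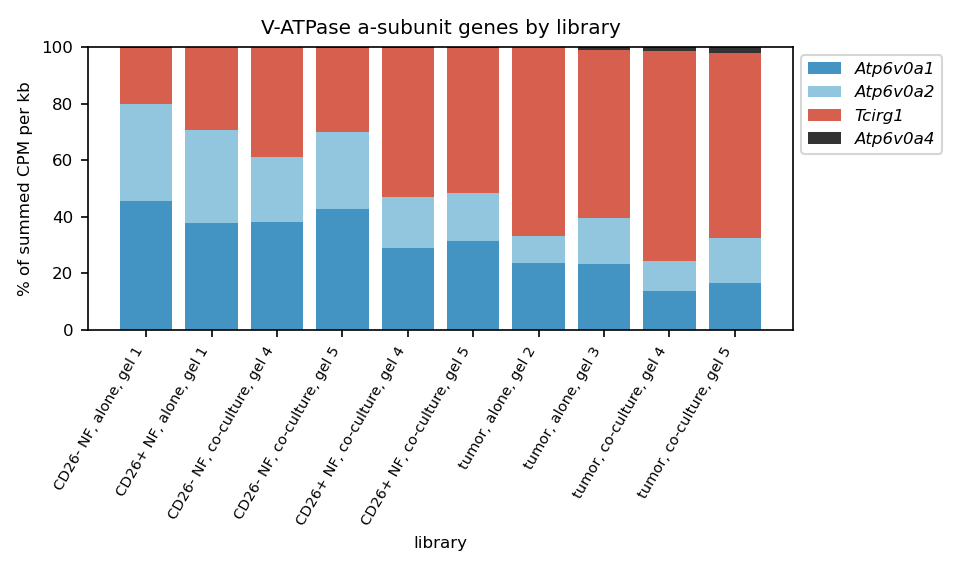
Share of the summed CPM per kb of exon taken by each of the 4 genes of the V-ATPase a subunit, for each of the 10 libraries (stacked bars, 0 to 100%). The Tcirg1 share is 20% in CD26- NFs grown alone, over 50% in co-cultured CD26+ NFs and over 59% in tumor cells.

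A list of 125 other lysosome genes was followed in the same fits. In co-cultured NFs, 114 were tested, 37 rose and 29 fell, with a median log2 fold change of 0.15, beside 25.9% and 22.9% of all genes tested, against which the counts by role that follow also stand. Of 34 hydrolases 11 rose and 12 fell: Ctsc, which activates granule proteases, went from 0.31 and 1.75 CPM in NFs grown alone to 61.2 to 98.5 CPM in co-cultured NFs, a log2 fold change of 6.41 ± 0.42, and Lgmn, the asparaginyl endopeptidase, fell with a log2 fold change of -1.99 ± 0.15. Of 14 genes that deliver hydrolases, 3 rose and 8 fell. Igf2r and M6pr, the mannose 6-phosphate receptors, rose by 1.34 ± 0.17 and 0.70 ± 0.14, while Sorl1, Vps33a and Gnptg, a subunit of the enzyme that makes the mannose 6-phosphate tag, fell with log2 fold changes of -1.80 ± 0.62, -1.04 ± 0.14 and -1.02 ± 0.22. Of 23 autophagy genes 8 rose, the highest being Atg9b (4.08 ± 0.39) and Ulk1 (0.98 ± 0.14), and 2 fell, Vps18 (-0.55 ± 0.15) and Vps11 (-0.36 ± 0.12). Atg9b was also called higher in tumor cells than in NFs, grown alone and in the shared gels. Tumor RNA in co-cultured NFs was estimated for the members alone, and its part in the changes of these other genes was not tested. In tumor cells 17 of 111 rose and 15 fell in co-culture, beside 10.8% and 11.5% of all genes, with Ctsc rising there too (2.42 ± 0.23).

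Between the subsets, 2 of the other genes were higher in CD26+ NFs (Tcirg1 and Rragd) and 1 lower (Ids), beside 3.93% and 3.6% of all genes. Between cell types of the shared gels, 16 of 118 were higher and 51 lower in tumor cells, beside 24.2% and 27.7% of all genes. Of 35 hydrolases there, 5 were higher and 19 lower, among them Ctsf (-8.61 ± 0.34), Smpd1, the acid sphingomyelinase (-3.54 ± 0.28), and Ctsh (-3.03 ± 0.40).

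Among genes that control the pathway, Tfeb was at 4.51 and 2.61 CPM in gels 2 and 3 (tumor cells alone) and 8.71 and 4.05 CPM in gels 4 and 5 in tumor cells. Its relative Tfe3 was at 64 to 110.1 CPM over all 10 libraries, and neither gene passed the edgeR threshold in any of the 7 comparisons. Mitf, of the same family, was at 26.3 (CD26-) and 26.2 CPM (CD26+) in NFs of gel 1. In gels 4 and 5 it was at 51.7 and 59.2 CPM in CD26- and 45.1 and 42 CPM in CD26+ NFs. Its tumor levels were 9.51 and 13.2 CPM in gels 2 and 3 (tumor cells alone) and 5.88 and 6.73 CPM in gels 4 and 5. Of 17 genes of this list tested in co-cultured NFs, 4 rose and 3 fell, the falls being Tfec (-1.73 ± 0.62), which is of the same family, Lamtor1 (-0.46 ± 0.13) and Zkscan3 (-0.42 ± 0.14). Mitf rose by 0.95 ± 0.15 in co-cultured NFs, fell in co-cultured tumor cells (-0.86 ± 0.19), and its culture effect differed by -1.81 ± 0.26 (adjusted p = 0.00255). Rragd, a GTPase of the complex that recruits mTORC1 to lysosomes, was at 0.373 (CD26-) and 1.75 CPM (CD26+) in NFs of gel 1. Gel 4 gave 6.73 (CD26-) and 19.7 CPM (CD26+), and gel 5 gave 2.65 (CD26-) and 9.69 CPM (CD26+). It had at most 1 count in any tumor library. It rose by 3.28 ± 0.50 in co-cultured NFs and was higher in CD26+ NFs by 1.59 ± 0.40. In each gel Rragd, Atp6v0d2 and Gpnmb, named together after values were seen, were higher in CD26+ NFs, beside 23.3% of all genes tested. Of the 17 genes of this list, 7 were higher and 2 lower in every gel. Mitf was among the lower ones (-0.13, -0.34 and -0.69).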

How the data were processed

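The authors deposited 1 table of raw read counts per gene for all 10 libraries, without normalization. Per the labels, reads came from stranded mRNA libraries, and the submitters' processing notes name HISAT2 2.2.1 and GRCm38. Which program counted the reads, whether it used strand and with which annotation release was not given in the sources used here. Groups followed the labels, and the label number of a gel served as the replicate number. A table line that named no gene had 0 counts and was dropped.

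CPM used library totals. Counts were tested with edgeR 4.0.16 (quasi-likelihood test after TMM scaling and filterByExpr on the fitted design) in R 4.3.3, with Benjamini-Hochberg adjustment over all genes tested and a threshold of 0.05. SE is that of the log2 fold change. NF fits used 6 libraries (subset and culture), the tumor fit 4 (line and culture), and cell type contrasts 6 groups over 10 libraries. NFs grown alone had 1 library a subset, and p-values measure only the spread between these samples. Alternatives were RLE scaling, library totals alone, other filters, DESeq2 1.42.0, a log2 fold change above 2, leaving out libraries, and the gel as a block. Per the labels, cells of gels 4 and 5 shared their gel, which pairs them, and the differences of gel 4 from gel 5 correlated across genes between cell types at 0.07 to 0.10. Counting intervals are exact binomial (95%), and, as PCR copies were not marked by molecular identifiers, intervals and floors (3 counts) cover counting error only. Exon lengths and positions are from GENCODE M21 (GRCm38), promoters from RefSeq.

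Members, other lists and tests were chosen with earlier results of these data known. Every member could be named. Values in every library were given for Lamp1, Ctsd, Gpnmb, Tfeb and, per comparison, the 3 highest and 3 lowest log2 fold changes past the threshold, and of each list of other lysosome genes at most the 3 highest and 3 lowest of a comparison were named. Markers Cd14, Itgam, Lyz2, Pecam1, Cdh5, Tek, Col1a2, Pdgfrb, Cldn3, Cldn4, Cldn7, Dsp and Cdh1 and the genes Gm2a, Tmem202, Celf6, Parp6, Pkm, Nfatc1, Kdr, Dpp4, Itgb3, Calcr, Oscar, Dcstamp, Tyrobp and C1qb were added after values were seen. Epithelial, fibroblast, macrophage, osteoclast and endothelial genes are described in the text. Sums over 5 endothelial genes were 2.34 to 4.07 CPM in tumor cells, and sums over 4 adipocyte genes 0.0566 to 6.46 CPM over all libraries.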

Additional observations from a re-analysis of the deposited data

Results flagged for a closer look

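For 7 members the culture effect in tumor cells differed from that in NFs by a test of the difference itself (edgeR, fit of all 10 libraries, adjusted over all genes). Over all genes tested, 8.15% were called higher and 12% lower, so the 7 of 39 are no result about the members as a group. The log2 differences were -1.48 ± 0.27 for Sqstm1, -1.46 ± 0.19 for Atp6ap2, -1.39 ± 0.36 for Naglu, -0.90 ± 0.27 for Psap, -0.87 ± 0.25 for Atp6v0c, -0.79 ± 0.19 for Atp6v1c1 and 1.19 ± 0.29 for Gusb. Those of Sqstm1 and Atp6ap2 passed the threshold under every alternative tried, except for the further limit of a log2 difference above 2, which no member passed. Of 10 settings that left out 1 library, the call was lost in 9 for Psap, 7 for Atp6v0c, 6 each for Naglu and Atp6v1c1 and 3 for Gusb. Every group held 1 or 2 libraries, too few to single out a library within its group.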

How the results depend on the processing

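Counts are of members called, with the share of all genes tested that was called under the same setting in brackets. Adding a log2 fold change above 2 left 1 for NF co-culture (13.6%), 1 for the subset (1.28%), 0 for tumor co-culture (3.17%), 6 for tumor cells against NFs alone (28.7%), 6 for the shared gels (23.5%) and 0 for the difference of culture effects (9.56%). DESeq2 gave 11 for the subset (11.2%), 1 for the interaction (0.635%), 3 for tumor co-culture (12.2%) and 13 for the difference (23.1%). Library totals alone gave 12 for the subset (9.21%) and 1 for the interaction (0.758%), and no filter beyond 1 count gave 3 for the subset (3.92%) and 17 for tumor co-culture (15.8%). The fit of 6 groups gave 0 for tumor co-culture (3.5%). With the gel as a block, which pairs cells of 1 gel, counts were 6 for the subset (8.87%), 1 for the interaction, at Gpnmb (2.43%) and 27 for the shared gels (59.5%), against 22 (51.8%). Leaving out 1 gel or library gave 12 to 13 for NF co-culture, 0 to 5 for the subset, 0 for the interaction, 0 to 1 for tumor co-culture, 14 to 19 for cells grown alone, 16 to 21 for the shared gels and 2 to 13 for the difference. In the same order, the numbers called over all genes were then 5131 to 5988, 17 to 1299, 0, 176 to 675, 7628 to 8344, 6477 to 8248 and 2163 to 3358, against 7325, 1130, 61, 2942, 9458, 8839 and 3439 with every library. Where this left a group with 1 library, it was assumed to vary like the other groups. The interaction and tumor co-culture then used the fit of 6 groups, which has no term for line. With every library, that fit called 0 members and 597 genes for tumor co-culture. The 2942 genes came from the fit with line as a term, so the fit changed as well as the libraries. Ctsz in tumor cells ranged from -1.21 to 0.42 in these fits without a line term. It turned to 0.42 without 13-MCB-17 alone and 0.15 without co-cultured 10-SJK-221, each of which leaves the lines unequal between cultures. Within each line Ctsz was lower in co-culture, with log2 differences of -0.36 (13-MCB-17) and -0.42 (10-SJK-221). Over all called members and alternatives, 669 calls kept direction and threshold, 224 kept the direction alone and 2 turned. The causes were not tested. Scaling by library totals alone moved the median of all genes from -0.06 to 0.13 in the shared gels and from -0.02 to 0.10 in cells grown alone. A member at 0 counts in a tumor library could still reach 0.163 to 0.191 CPM.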
